A study of Mus musculus with 6 samples.

Results

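The annotated ends of genes are the subject here: listed cytosines whose annotation begins with 3′ UTR or with TTS, the transcription termination site, in LSK cells with and without Tet1. By that rule 234 of the 6756 listed cytosines were gene-end sites (3.46%), of which 112 lay in a 3′ UTR and 122 carried the TTS label. Enhanced reduced representation bisulfite sequencing (ERRBS), which reads mainly CpG-rich fragments, had been run on 3 samples labelled Tet1 KO and 3 labelled WT. All were LSK cells, the lineage-negative, Sca-1 and Kit positive fraction of bone marrow that contains the blood stem and progenitor cells, flow-sorted from mice 6 months old whose strain the labels write as CD57BL/6. The labels give neither the design of the Tet1 KO allele, nor the sex of the mice, nor whether the 3 samples of each genotype are from different animals.

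Tet1 encodes a dioxygenase that oxidises 5-methylcytosine, a step on the way to its removal, and bisulfite reads 5-methylcytosine and its hydroxymethyl form alike. A 3′ UTR is the part of a messenger RNA after the stop codon, where microRNAs and RNA-binding proteins act and where polyadenylation ends the transcript. Gene bodies and gene ends are usually methylated in mammalian cells, while CpG-rich starts usually are not, and the end of a gene can lie close to the start of its neighbour.

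The value behind every site was a single methylation difference in percentage points, Tet1 KO minus WT, in lists that the authors began at 25 percentage points. The direction comes from the names of the lists and from the signs in them. Values per sample, coverage and p-values were not used here, so no replicate spread, depth or test stands beside a difference, and intervals cover counting error alone. Neither the loss of Tet1 nor the identity of the sorted cells could be checked with these tables, which hold no expression, and a change within cells cannot be told apart from a change in the mix of cells sorted. Cytosines a few bases apart can share reads, so sites are not replicates. A gene is named below by the transcript whose end holds the site, with its current symbol. That gene was found for 232 of the 234 sites, giving 145 named genes and 1 end without a name.

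MicroRNA precursors are short RNAs whose mature products carry a seed, bases 2 to 8, that pairs with 3′ UTRs. The starts and ends used for these loci are those of the annotated precursors, which need not be where transcription starts or ends. Their ends held 8 sites at 4 loci, all hypermethylated in Tet1 KO, as were 92.8% of all listed sites. The mature sequences are shown because these loci are identified by them; they come from RefSeq (GRCm38.p6, 5′ to 3′, all on the + strand), with the seed in capitals. No seed is shared between them.
mmu-miR-26b-5p: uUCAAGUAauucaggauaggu
mmu-miR-26b-3p: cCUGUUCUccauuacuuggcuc
mmu-miR-193a-5p: uGGGUCUUugcgggcaagauga
mmu-miR-193a-3p: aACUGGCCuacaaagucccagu
mmu-miR-203-5p: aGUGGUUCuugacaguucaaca
mmu-miR-203-3p: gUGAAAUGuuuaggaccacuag
mmu-miR-5122: cCGCGGGAcccggggcugug

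The end of Mir193a held 3 forward-strand sites, 841 to 864 bp past its start, with differences of 38.5, 38.6 and 57.4 percentage points (the authors' deposited table). Both Mir26b sites, 573 and 588 bp past the start, had the same difference of 41.1 percentage points (the authors' deposited table). Mir5122 had 51.4 percentage points at 778 bp and 33.9 percentage points at 928 bp in the authors' deposited table, and Mir203 had 34.1 percentage points at 348 bp. The precursors are 66 to 89 nucleotides long, so the farthest of these sites lay 839 bp past the end of its annotated precursor. The TTS label thus covers sequence downstream of annotated ends, and none of these 8 sites lay within a precursor. No source used here gives the bounds of the label.

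The comparison at gene ends asked first for the sign of the differences. By the authors' deposited lists, 212 gene-end sites were hypermethylated in Tet1 KO and 22 were hypomethylated. The hypermethylated share was 90.6% (exact Clopper-Pearson 95% interval 86.1 to 94.0%), against 92.8% of all listed sites, which included the gene-end sites, and the hypomethylated share was 9.40%, against 7.19%. The share was 93.4% at TTS sites (114 of 122, 87.5 to 97.1%) and 87.5% in 3′ UTRs (98 of 112, 79.9 to 93.0%). Both intervals hold the 92.8% of all sites. Of the 14 hypomethylated 3′ UTR sites 5 lay within 47 bp of each other in Mid1 on the X chromosome, and without them the 3′ UTR share was 91.6% (84.6 to 96.1%). Promoters stood at 97.0% (95.4 to 98.1%), exons at 95.6%, introns at 91.7% and intergenic sites at 91.4%. The interval of 3′ UTRs ended below the interval of promoters, but features were not tested against each other, since neighbouring sites are not independent.

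**Figure D1:**
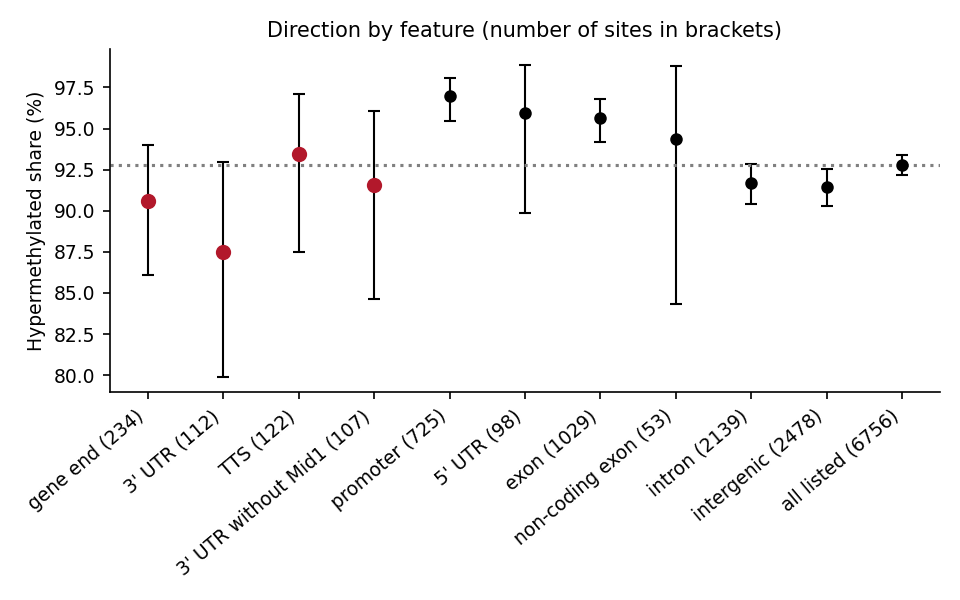
Share of listed sites that were hypermethylated in Tet1 KO (y axis, percent) by annotated feature (x axis, number of sites in brackets), with exact 95% intervals for counting error; red marks gene-end sets and the dotted line is all listed sites at 92.8%. The 3′ UTR point is at 87.5% and moves to 91.6% without Mid1.

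The size of the differences at gene ends was close to that of the whole lists. Hypermethylated gene-end sites had a median of 40.5 percentage points (range 25.1 to 83.9) in the authors' deposited table, and all hypermethylated sites 41.1 percentage points. Hypomethylated gene-end sites had a median of -35.3 percentage points (range -57.1 to -25.8), and all hypomethylated sites -34.1 percentage points. The medians of 3′ UTR and TTS sites were 41.0 and 40.5 percentage points among hypermethylated sites and -35.3 and -34.8 percentage points among hypomethylated sites in the authors' deposited tables. At least 40 percentage points was reached by 110 of the 212 hypermethylated gene-end sites (51.9%), against 53.4% of all hypermethylated sites, and by 6 of the 22 hypomethylated ones (27.3%), against 29.2%. Coding exons were higher, with a median of 46.0 percentage points and 66.3% of hypermethylated sites at 40 or more. Just inside the lists lay the ends of Wwp2 and Ttc36 at 25.1, of 0610039K10Rik at 25.2 and of Wdr93 at 25.5 percentage points (the authors' deposited table); cytosines below 25 percentage points were not used here.

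**Figure D2:**
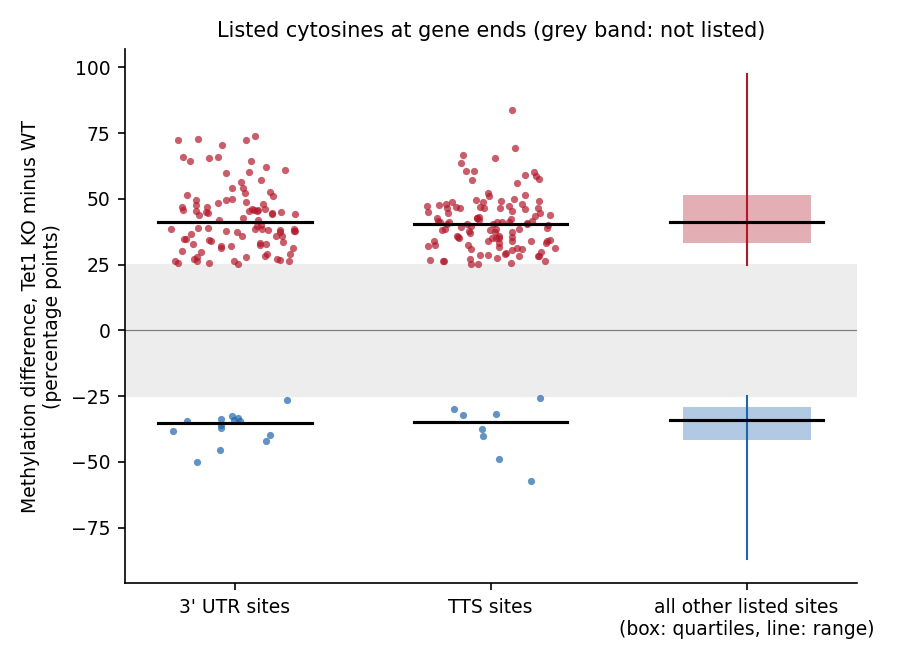
Methylation difference of every gene-end site, Tet1 KO minus WT in percentage points (y axis), for 3′ UTR and TTS sites (points; black lines are medians) and, for all other listed sites, quartiles (boxes), medians (black lines) and range (thin lines); red is hypermethylated, blue hypomethylated, and the grey band holds the differences that the lists leave out. Medians lie at 41.0 and 40.5 percentage points among hypermethylated 3′ UTR and TTS sites.

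The largest gains at gene ends reached single cytosines of transcription factor, enzyme and membrane protein genes. The TTS of Lhx3, a LIM homeobox factor of pituitary and motor neuron development, held the largest difference, 83.9 percentage points, with a second site on the other strand, within a 172 bp region, at 44.7 percentage points (the authors' deposited table). The 3′ UTR of Extl1, an exostosin-like glycosyltransferase gene, followed with 73.7 and 65.8 percentage points on opposite strands. The 3′ UTRs of Rhcg, an ammonium transporter gene, and Rasl10b, a Ras-like GTPase gene, peaked at 72.7 and 72.5 percentage points (the authors' deposited table). Crtc3, a coactivator of CREB, reached 72.4 percentage points in its 3′ UTR, Meltf, the gene of the iron-binding protein melanotransferrin, 70.6, and Pou4f3, a POU factor of inner ear hair cells, 69.1 at its TTS. Hint2, a mitochondrial nucleotide hydrolase gene, reached 66.8 percentage points (the authors' deposited table). Of these genes only Lhx3 and Extl1 had other listed cytosines in their annotated transcripts. Those cytosines were hypermethylated too, as were 92.8% of all listed sites.

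Some of the gains came in short clusters. Joining neighbours with equal sign, with gaps under 1000 bp, gave 129 hypermethylated and 18 hypomethylated gene-end regions. The hypermethylated share of gene-end regions was 87.8%, against 89.4% of all regions. At least 2 sites were held by 51 of the 129 hypermethylated regions (39.5%), against 1205 of all 3786 hypermethylated regions (31.8%), and by 1 of the 18 hypomethylated ones. In 12 gene-end regions the join also took in listed sites of exons, introns, intergenic sequence or a promoter. A region was kept if it held any gene-end site, so regions with more sites were more likely to be kept. Regions with at least 3 gene-end sites numbered 20, and the SD over their sites ran from 1.98 to 16.1 percentage points with a median of 10.1. That SD is a spread along the DNA within a region, not between mice. By gene, 128 ends held hypermethylated sites alone and 18 held hypomethylated sites alone. No end held both directions, but 98 of the 146 ends held 1 site and so could not.

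The end of Nxf1, the gene of the main nuclear export receptor for messenger RNA, carried the most sites, 9 TTS sites within 131 bp (chromosome 19, 8845610 to 8845740, mm9). The 5 on the forward strand stood at 63.6, 56.1, 60.6, 60.7 and 59.0 percentage points, and the 4 on the reverse strand, further on, at 38.1, 40.5, 40.5 and 40.5 percentage points (the authors' deposited table). The strands did not overlap in value, and strand and position cannot be told apart here. All 9 lay 124 to 254 bp past the start of the neighbouring gene Tmem223. The same cytosines thus carry the end label of Nxf1 and lie close past the start of another gene. Whether they lie before or after the annotated end of Nxf1 is not known here.

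Rasl10b had 7 sites in exon 4 of 4 (chromosome 11, 83232591 to 83233144), with differences of 37.6, 44.6, 44.1, 72.5 and 65.9 on the reverse strand and of 30.3 and 47.7 percentage points on the forward strand in the authors' deposited table. Here the values of the 2 strands overlapped. Cbln1, which encodes a secreted organiser of cerebellar synapses, had 5 sites in exon 3 of 3 and 1 TTS site (chromosome 8, 89992350 to 89992877). Its 3′ UTR sites stood at 47.0, 45.9, 33.0, 38.8 and 38.5 and its TTS site at 29.4 percentage points (the authors' deposited table). The histamine H3 receptor gene Hrh3 had 4 forward-strand sites within 47 bp of its 3′ UTR, at 65.6, 62.0, 48.0 and 43.9 percentage points (the authors' deposited table), falling in the order of position. The 4 sites in the 3′ UTR of Meltf stood at 36.0, 45.1, 53.9 and 70.6 percentage points (the authors' deposited table), rising in the order of position over 228 bp.

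Rhcg had 4 sites in exon 11 of 11 at 72.7, 45.1, 51.5 and 34.5 percentage points (the authors' deposited table). Ntng2, which encodes the membrane-anchored netrin-G2 of axon guidance, had 4 TTS sites within 49 bp at 46.7, 43.5, 35.7 and 37.3 percentage points. Tnfrsf13b, the gene of the B cell receptor TACI, had the lowest mean of these clusters, 29.3, with 28.1, 28.1, 34.4 and 26.4 percentage points at 4 TTS sites (the authors' deposited table). An intronic site at 30.3 percentage points lay in the same 521 bp region. Hint2 had 35.3, 48.1 and 66.8 percentage points at its TTS, 194 to 233 bp past the start of Spag8. Ankrd66, an ankyrin repeat gene, had 51.1, 52.0 and 45.9 percentage points in its 3′ UTR, and the synaptic scaffold gene Anks1b 59.9, 50.0 and 36.5 in the authors' deposited table. The Anks1b sites lay 115208 to 115345 bp from the nearest start, which is that of Apaf1.

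**Figure D3:**
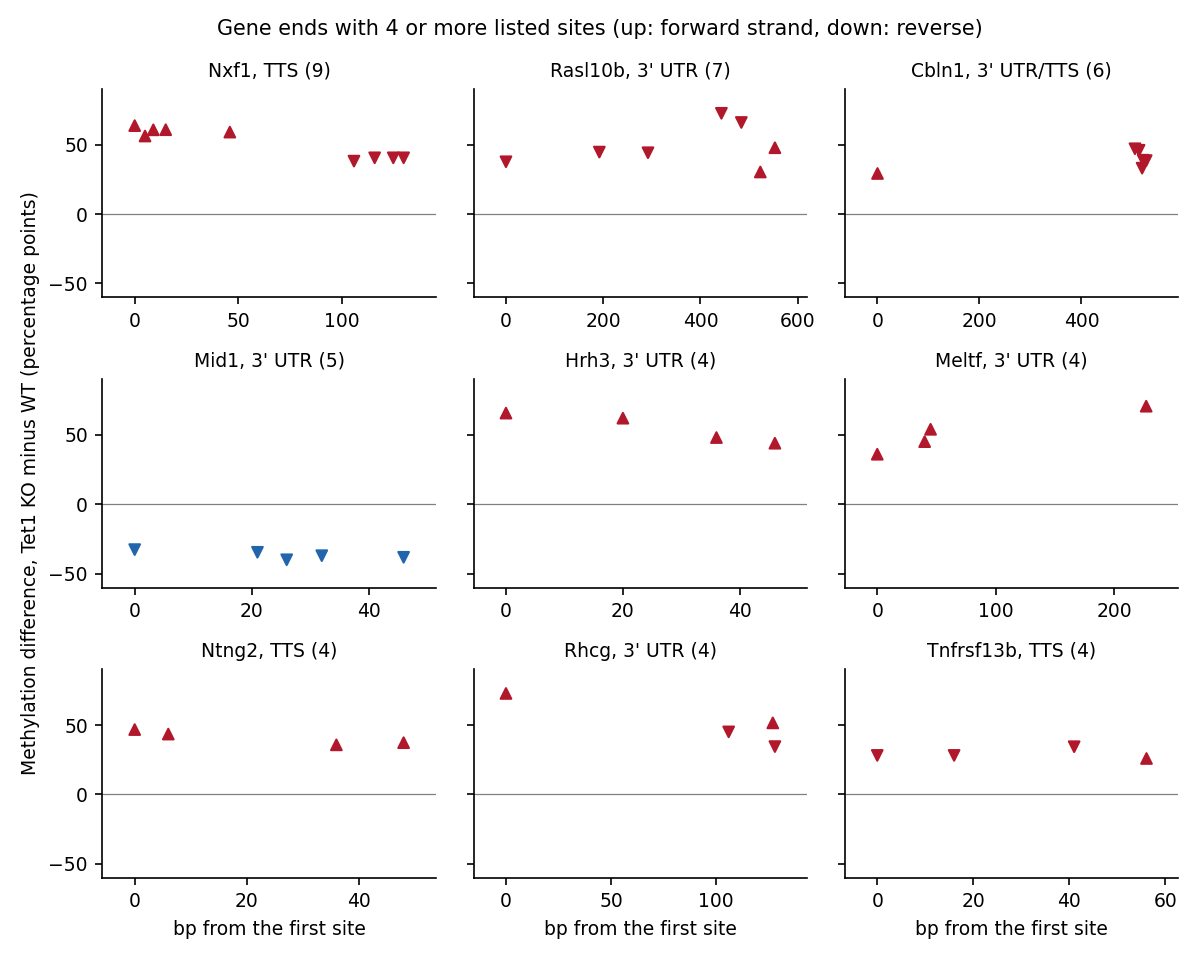
Methylation difference (y axis, Tet1 KO minus WT, percentage points) against the distance from the first listed site (x axis, bp) at the 9 gene ends with at least 4 sites; upward triangles are forward-strand and downward triangles reverse-strand cytosines, red hypermethylated and blue hypomethylated. Nxf1 falls into 2 levels by strand, at 56.1 to 63.6 and 38.1 to 40.5 percentage points, and Mid1 is the hypomethylated cluster.

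A CpG has a cytosine on each strand, so a CpG listed on both gives a measurement and its near repeat. At gene ends 2 CpGs were listed on both strands, out of 57 in all. In Rhcg they stood at 51.5 and 34.5 percentage points, and in Crtc3 at 72.4 and 32.0 percentage points (the authors' deposited table). The Crtc3 gap of 40.4 percentage points was the largest of the 57. Outside gene ends the gap had a median of 7.96 percentage points over 55 CpGs, with a largest of 27.8. All 57 had the same direction on each strand, but the lists come close to fixing that. Both strands had to pass 25 percentage points, and 92.8% of all listed sites were hypermethylated. CpGs with the other strand below that bound are left out of these gaps. Of 105 gene-end sites with a listed neighbour on the same strand within 50 bp, the read length in the labels, 9 had exactly the same difference as that neighbour, in Nxf1, Mir26b, Pax2 and Tnfrsf13b.

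The 22 hypomethylated sites lay at 18 gene ends, of which 17 held 1 site. The exception was Mid1, which encodes a microtubule-bound ubiquitin ligase and spans the pseudoautosomal boundary of the X chromosome in this species, with its last exons in sequence shared with the Y. Its 5 reverse-strand sites in exon 10 of 10 (chromosome X, 166428075 to 166428121) stood at -32.6, -34.6, -40.0, -37.0 and -38.2 percentage points (the authors' deposited table). The sites had a range of 7.32 percentage points, and the nearest start was that of G530011O06Rik, 11226 to 11272 bp away. The promoter of Mid1 was also hypomethylated, with -26.4 percentage points at a site 25 bp from the nearest start. Reads from the X and Y copies of this end cannot be told apart, and the sex of the samples is not given.

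Among the others the largest loss was -57.1 percentage points at the TTS of Arhgef16, a guanine nucleotide exchange factor gene, in the authors' deposited table. Prr23a3, a proline-rich protein gene with 1 exon, had -50.0, and Marchf9, the gene of a membrane-bound ubiquitin ligase, -49.0 percentage points. The 3′ UTRs of Slc38a1, a glutamine transporter gene, and Rhobtb3, an atypical GTPase family gene, had -45.5 and -42.2, and the TTS of Fgd6, another exchange factor gene, -40.0 percentage points (the authors' deposited table). Bcor, which encodes a transcriptional corepressor mutated in blood cancers, had -34.2 percentage points in exon 15 of 15 on the X chromosome. Bcor and Mid1 held 6 of the 7 gene-end sites on X.

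The second question was whose end and whose start the sites belong to. For 138 of the 234 sites (59.0%, exact interval 52.4 to 65.3%) the nearest annotated start was the gene's own, and for the other 96 it was that of another gene. After the sign was turned by the strand of the cytosine, all 138 sites of the first kind lay past the start, as the end of a gene must. The own start was nearest for 71.4% of 3′ UTR sites (80 of 112, 62.1 to 79.6%) and for 47.5% of TTS sites (58 of 122, 38.4 to 56.8%). When another gene's start was nearest, it lay a median of 1887 bp from TTS sites and 14568 bp from 3′ UTR sites. Own starts lay a median of 6801 and 8880 bp away. Of the 64 TTS sites nearest to another gene's start 24 were within 1000 bp of it, at 9 starts. All 24 lay past the start, which the labelling can fix, since sites up to 996 bp before a start carried the promoter label. All 24 were hypermethylated, beside 92.8% of all listed sites, and 9 of them are the Nxf1 cluster. Of the 32 such 3′ UTR sites none was within 1000 bp.

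**Figure D4:**
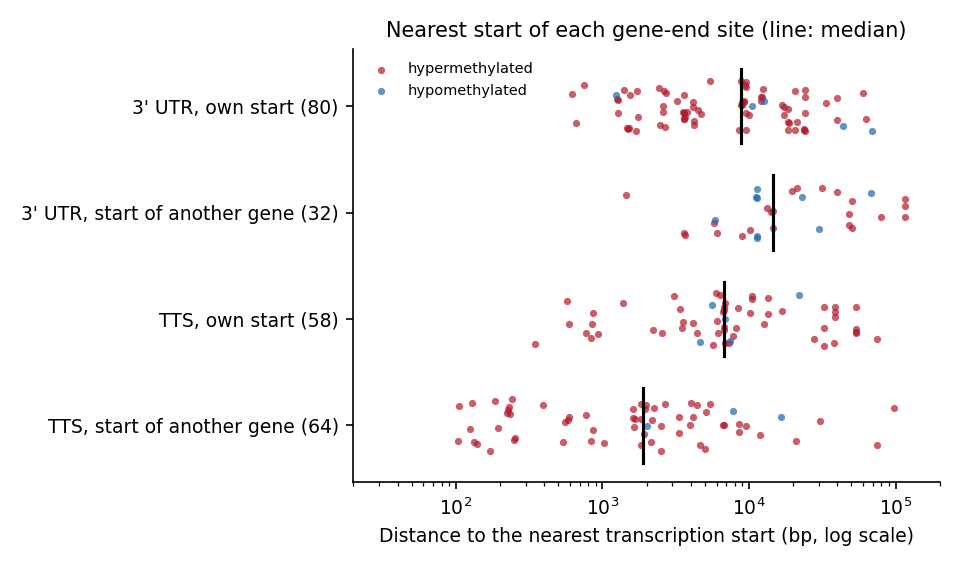
Distance from each gene-end site to the nearest annotated transcription start (x axis, bp, log scale), for TTS and 3′ UTR sites whose nearest start was their own or that of another gene (rows, number of sites in brackets); black lines are medians, red is hypermethylated and blue hypomethylated. TTS sites nearest to another gene's start have the lowest median, 1887 bp.

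These 24 sites include the 9 at Nxf1 and Tmem223 and the 3 at Hint2 and Spag8. The 3 at the end of Smpdl3b, a phosphodiesterase gene, lay 541 to 578 bp past the start of Xkr8, a phospholipid scramblase gene, with 28.9, 40.9 and 52.3 percentage points (the authors' deposited table). Those at Grin1, which encodes an NMDA receptor subunit, lay 832 and 858 bp past the start of its antisense gene Grin1os, at 35.2 and 43.2 percentage points. The end without a name held 2 sites at 38.6 and 45.1 percentage points, 103 and 105 bp past the start of Clic6, and a promoter site in the same region in the authors' deposited table. Farther from the start, the TTS site of Acoxl at 48.1 percentage points lay 1988 bp before the start of Bcl2l11, the gene of the pro-apoptotic protein BIM. Acoxl and Bcl2l11 were named after their values were seen.

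In 3′ UTRs the distance to the nearest start was shorter in transcripts of a single exon, which the lack of introns can fix. All but 1 of the 112 sites were in the last exon of the annotated transcript, the exception being Twist2 in exon 1 of 2. Of these sites 16 were in 10 single-exon transcripts, such as the GPCR gene Aplnr and the neuronal kinase activator gene Cdk5r2, where the sites lay 616 to 2590 bp from the nearest start (median 1482 bp). The 96 sites of transcripts with several exons had a median distance of 11265 bp. Hypermethylated sites of the 2 kinds had medians of 38.5 and 42.5 percentage points (the authors' deposited table), with 1 and 13 hypomethylated sites beside them.

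The third question was whether the same genes were listed away from their ends. Of the 146 ends 39 (26.7%) belonged to genes with other listed sites in their annotated transcripts. These were 94 sites in all, of which 62 were intronic, 22 in exons and 10 in promoters. The same share was not counted for genes listed at other features, so 26.7% cannot be called high or low. Of the 39 genes 34 were hypermethylated at the end, and 91 of the 94 other sites were hypermethylated, beside 92.8% of all listed sites. In 33 genes end and elsewhere had the same direction and in 6 they had opposite signs, and with so few hypomethylated sites this count says nothing of a link between end and interior. Of the 5 genes hypomethylated at the end, Mid1 had the same direction elsewhere and 4 the opposite.

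The promoter was listed in 6 genes with a listed end. Lhx3 had a mean of 64.3 percentage points at its end, against 40.8 over 5 hypermethylated promoter sites and 50.3 at 1 intronic site (the authors' deposited table). Twist2, a basic helix-loop-helix repressor gene, had 45.6 percentage points in its 3′ UTR, 45.3 at 1 promoter site and a mean of 41.7 over 4 intronic sites. The water channel gene Aqp5 had 28.7 percentage points at its TTS and 39.3 at its promoter, and Nbl1, which encodes a BMP antagonist, 32.0 and 46.7 in that order (the authors' deposited table). Ttbk1, a tau kinase gene, had 25.6 percentage points in its 3′ UTR, 38.5 at its promoter and a mean of 40.2 over 5 intronic sites. The sixth was Mid1, hypomethylated at its promoter too.

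Inside the genes, Extl1 had a mean of 69.8 percentage points over its 3′ UTR sites and of 73.2 over 4 exonic sites, all 6 within 113 bp (the authors' deposited table). A single intronic site of Extl1 stood at 41.8 percentage points. Diras1, a Ras-family tumour suppressor gene named after its values were seen, had 26.3 and 57.0 percentage points in its 3′ UTR and a mean of 53.4 over 4 exonic sites (the authors' deposited table). Both a 3′ UTR and a TTS site were listed in 3 genes, among them Cbln1 and Fosb. The AP-1 gene Fosb had 27.9 percentage points in its 3′ UTR and 41.4 at its TTS (the authors' deposited table).

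Ends and interiors differed in sign in 6 genes, and those named here were named after their values were seen. In 4 of them the end was hypomethylated and the interior hypermethylated. Bcor had -34.2 percentage points at its end and 39.7 and 29.4 at 2 intronic sites, of which the second lay 599 bp from the nearest start (the authors' deposited tables). Asphd2 had -37.3 at its TTS and 47.4 and 30.4 percentage points in an exon. The pannexin channel gene Panx2 had -33.3 in its 3′ UTR and 41.2 in an intron, and Tnrc18 had -36.0 and 33.3 percentage points (the authors' deposited tables). In the other 2 the end was hypermethylated. Of these Coro2b, a coronin gene, had 60.9 percentage points in its 3′ UTR and -25.8 in an intron in the authors' deposited tables.

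**Figure D5:**
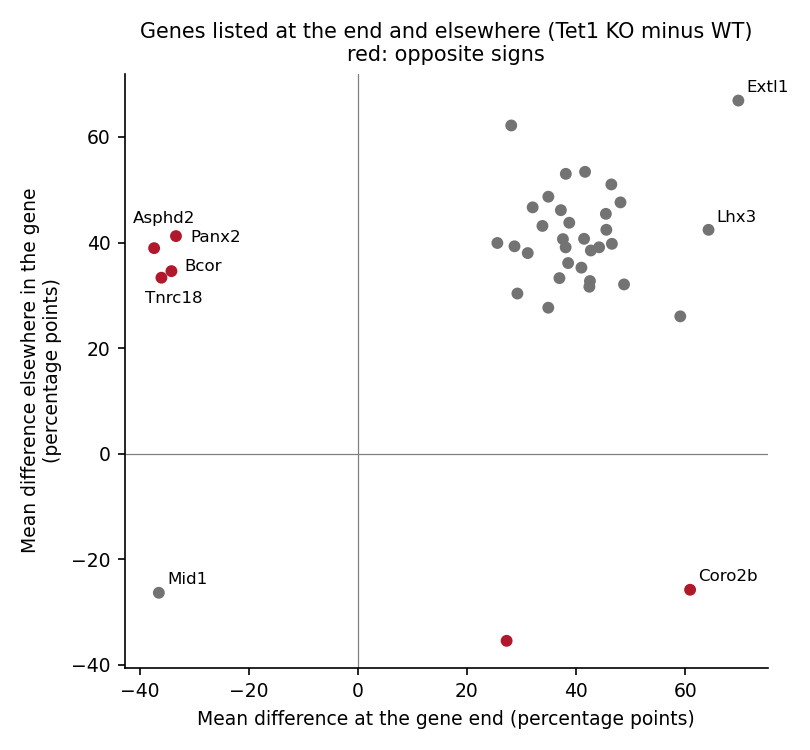
Mean difference of the gene-end sites (x axis) against the mean of all other listed sites in the annotated transcripts of the same gene (y axis), both Tet1 KO minus WT in percentage points, for the 39 genes listed in both places; red points are the 6 genes with opposite signs. No value lies within 25 percentage points of 0, since the lists leave those cytosines out.

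The last question was which functions the genes with listed ends have. Of 117 developmental transcription factors in a list written with earlier results of these data known, 4 had a gene-end site, all hypermethylated. Over all features 152 listed sites lay nearest to the starts of 50 of these genes, and 7 sites lay at the ends of the 4, beside 3.46% of all listed sites at gene ends. The 2 counts assign genes differently, by the nearest start and by the transcript end. Besides Lhx3 these were Tbx2, a T-box factor, with 47.2 percentage points at its TTS, Lhx5, a forebrain LIM homeobox factor, with 31.1 in exon 5 of 5, and the kidney and eye factor Pax2 with 46.4, 46.4 and 31.6 percentage points at its TTS in the authors' deposited table. Pax2 also had 7 intronic sites averaging 40.7 percentage points. A list of 84 selected signalling ligands and receptors, which holds none of the other ligand and receptor genes described next, had 1 gene-end site, in the ephrin gene Efna2 with 48.7 percentage points at its TTS, and 93 listed sites nearest to its starts. The lists of 67 blood stem and lineage genes, 63 chromatin and DNA methylation genes and 42 imprinted genes had no gene-end site, with 59, 9 and 19 listed sites nearest to their starts. At 3.46% of all listed sites, gene-end sites are too few for such small numbers to set a list apart. How many gene-end CpGs of each list the assay read is unknown, and its part in these counts was not tested.

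Grouped after the values were seen, 18 DNA-binding transcription factor genes had 22 gene-end sites, all hypermethylated, with a median of 42.0 percentage points (the authors' deposited table). They include the basic helix-loop-helix genes Neurod1 at 42.5, Nhlh1 at 26.4, Neurog3 at 26.3, Bhlhe23 at 27.7 and Helt at 33.1 percentage points, which act in neuronal or endocrine differentiation. Among 13 genes of ligands, receptors and antagonists all 29 sites were hypermethylated, with a median of 38.8 percentage points. Wnt8b, a Wnt ligand gene of the developing brain, had 45.2 and 39.7, and Epha8, an ephrin receptor gene, 42.5 percentage points (the authors' deposited table). Of 10 selected genes of ion channels and transporters 7 were hypermethylated at the end and 3 hypomethylated. The 3 were the sodium channel subunit gene Scn4b with -33.6 percentage points, and Panx2 and Slc38a1 (the authors' deposited table). The selection is not the full class and leaves out, among others, Mfsd14a at -32.3 and Pkd1l2 at 37.0 percentage points. The split therefore depends on which genes were picked. The transcription factor, ligand and receptor, and immune groups are selections as well, so their counts depend on the picks too. Among 5 selected immune genes all 8 sites were hypermethylated and none reached 40 percentage points. That size was reached by 51.9% of hypermethylated gene-end sites and 53.4% of all hypermethylated sites. The count was 12 of 22 among the transcription factors and 13 of 29 among the ligands and receptors, and 4 of the 8 immune sites are the Tnfrsf13b cluster. The groups overlap: Tnfrsf13b, for example, also counts among the receptors and Nfkb2 among the transcription factors. Beside Tnfrsf13b, the Fc receptor gene Fcgr1 stood at 28.9, the cytokine signalling inhibitor gene Socs1 at 26.6 and the NF-κB subunit gene Nfkb2 at 32.4 percentage points (the authors' deposited table). Of all listed sites 92.8% were hypermethylated, and no group was tested against the rest.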

How the data were processed

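Genomic DNA of LSK cells (3 Tet1 KO and 3 WT samples) was bisulfite-converted and sequenced by the authors with 50 bp single-end reads, per the labels. The submitters' processing notes name Bismark and mm9. No source used here says how differences were called or replicates combined. The authors deposited 2 tables, which list 1 methylation difference per cytosine in percentage points and the distance to the nearest start. Columns of per-sample values numbered 0, so no test was run and depth is unknown.

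Positions are those in the site identifiers (mm9). Gene-end transcripts were matched by accession to RefSeq (GRCm38.p6, names only; 226 sites) or to names in the files (6 sites). Signs of distances were multiplied by the strand of the cytosine. Intervals are exact Clopper-Pearson at 95%, and those of medians come from order statistics (Python 3.11.15, scipy 1.17.1). The join and the intervals were tested on simulated data. Members, gene lists and rules were chosen with earlier results of these data known. Named genes were the 12 ends with the most sites, the 8 largest differences per direction, the 4 smallest, ends with both labels, up to 6 ends with promoter sites, and list members; others are marked as chosen after their values were seen or serve as examples of a count. Alternatives are given in the closing section. A few genes that the rule names are not reported here.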

Additional observations from a re-analysis of the deposited data

How the results depend on the processing

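Of 47 values recomputed under other settings 36 stayed within the interval of the main value (counts: within 1.5 times) and 11 moved. None changed sign, but shares, counts, absolute gaps and medians within a direction cannot do so. Some also stayed by construction: the strand gaps kept the same 2 CpGs, and leaving out Mid1 cannot alter hypermethylated medians or counts. With sites of 40 percentage points or more alone, the hypermethylated share was 94.8% (of 116 sites), the medians were 47.2 and -47.2 percentage points, 70 hypermethylated and 6 hypomethylated regions were left, and 15.8% of genes had other listed sites; fewer sites enter by construction. On the forward strand alone the hypermethylated median was 43.2 percentage points, with 74 hypermethylated and 11 hypomethylated regions. The own start was nearest for 71.4% of 3′ UTR sites alone and 47.5% of TTS sites alone. Joining within 200 or 5000 bp, autosomes alone, leaving out the 5 Mid1 sites, counting both strands of a CpG once, and regions in place of sites left every value computed under them within its interval or 1.5 times its count. No gene-end CpG listed on both strands was left at 40 percentage points or among TTS sites. No replicate could be left out, and no paired analysis was possible because the tables hold no values per sample. Coverage is unknown, so the precision of a single difference is unknown too.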

Other observations

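Hypermethylated gene-end sites had medians of 43.2 percentage points on the forward strand (109 sites, interval 38.6 to 46.2) and 38.5 percentage points on the reverse strand (103 sites, 36.5 to 41.0) in the authors' deposited table, where all hypermethylated sites had 41.3 and 40.9 percentage points. All 8 hypomethylated TTS sites were on the forward strand and 11 of the 14 hypomethylated 3′ UTR sites on the reverse strand, 5 of these 11 in Mid1.

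Gene-end sites were spread unevenly over chromosomes. Chromosome 19 had 21 among 231 listed sites (9.09%), 9 of them at Nxf1, while chromosome 5, with the most listed sites, had 8 of 648 (1.23%). Chromosome 14 had 1 of 211, a hypomethylated site. How many gene-end CpGs were read on each chromosome was not used here.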
